A study of Homo sapiens with 6 samples.

Results

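Genes for the non-collagen part of the extracellular matrix were followed in PC9, a line of human lung adenocarcinoma that depends on a mutant, active EGFR. The 42 genes encode fibronectin, laminin chains, nidogens, fibrillins, fibulins, matricellular proteins, proteoglycans and the lysyl oxidases, and they were chosen by symbol. These genes and the related lists below were chosen with earlier results of these data known. The shares called are therefore not those of a list chosen without such results. All 42 have a row among the 26485 genes of the authors' deposited table. Of these, 29 were tested, meaning that they have an adjusted p-value, 3 had reads but no adjusted p-value, and 10 had no reads.

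Matrix glycoproteins are secreted proteins that cells bind through integrins and other receptors. Laminins are trimers of an alpha, a beta and a gamma chain and are the main adhesive proteins of the basement membrane under epithelia, while fibronectin and fibrillins form fibres in the looser matrix around stromal cells. Latent TGF-beta binding proteins (LTBPs) hold inactive TGF-beta in those fibres, and lysyl oxidases are copper-dependent enzymes that cross-link collagen and elastin.

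Polyadenylated RNA was sequenced from 3 libraries of PC9 cells labelled dacomitinib-resistant and treated with 100 nM dacomitinib, an irreversible inhibitor of EGFR-family kinases, and from 3 libraries of untreated parental PC9 cells. The resistant cells came from parental cells exposed to dacomitinib for 6 months at doses raised from 1 pM to 100 nM, so the effects of selection and of the drug in the medium cannot be told apart. The labels do not say whether libraries came from separate cultures or how many resistant clones there were, and p-values therefore measure the spread between these libraries, which may be technical. Neither the file nor its headers state the direction of the fold change, which is read as resistant over parental from the design, and every direction below rests on that reading.

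Whole reads per library were recovered from the deposited means for all 32 of the genes with reads, which allowed each library to be shown. Library letters A to C run from the largest to the smallest size factor within a group and could not be tied to the numbered replicates. Size factors ran from 1.06 to 1.37 in resistant and from 0.539 to 1.08 in parental libraries. Reads over the recovered genes numbered 2224247 to 2862049 in resistant and 1171555 to 2387621 in parental libraries, with parental C the shallowest. All 10 epithelial markers had reads, the lowest being ELF3 with a mean normalized count of 90.9 in the authors' deposited table. In the authors' deposited table KRT7 and EPCAM were higher, with log2 fold changes of 0.68 and 0.31, KRT8 and KRT18 were lower, at -0.65 and -0.61, and the other 6 were not called. Among fibroblast markers, 6 of 10 were at 0 (COL1A2, DCN, LUM, PDGFRA, THY1 and PDPN), and the list summed to 24.1 to 28.6 normalized reads in resistant and 0.922 to 2.90 in parental libraries, most of it COL1A1. Mural cell markers summed to 974 to 1046 in resistant and 814 to 820 in parental libraries, with CSPG4 at 0, PDGFRB higher (log2 fold change 8.17) and NOTCH3 lower (-1.26) in the authors' deposited table. Endothelial markers summed to 128 to 139 in resistant and 266 to 292 in parental libraries, with VWF, KDR, TEK and CLDN5 at 0. Most of that sum was ESAM, which was called lower (log2 fold change -1.01), as was CDH5 (-1.20), in the authors' deposited table. Immune markers summed to 161 to 189 in resistant and 158 to 185 in parental libraries, with PTPRC and CD3E at 0. Most of that sum was CD68, which was not called (0.04), while LYZ, with few reads, was called lower (-3.25) in the authors' deposited table. The part of other cells in the results was not tested, and in bulk RNA a change in the number of cells of a kind cannot be told apart from a change in RNA per cell.

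Fibronectin, most LTBPs, the laminin chains LAMA3 and LAMB3, the adhesive protein MFGE8 and the cross-linking enzymes LOXL1 and LOXL2 were higher in resistant cells, whereas FBLN1, LAMA4, LTBP3, PXDN and LOXL4 were lower. At an adjusted p under 0.05, the authors' deposited table put 12 of the 29 tested genes higher and 6 lower, so that 62.1% were called, against 28.2% of all tested genes. By direction, 13.3% of all tested genes were higher and 14.8% lower. Among genes averaging at least 50 normalized reads, where the test sees smaller changes, 15 of 19 matrix genes were called (78.9%), against 41.5% of all such genes. In the authors' deposited table the 29 genes had a median log2 fold change of 0.43, against 0.02 over all tested genes. Normalized reads of resistant libraries lay wholly above those of parental libraries for 15 genes, including SPARC, which was not tested, and wholly below for 6, while 24.8% of all recovered tested genes lay wholly above and 23.5% wholly below, 48.3% in all. Among genes averaging at least 50 normalized reads, 10 matrix genes lay wholly above and 5 wholly below, against 26.7% above and 32.5% below (59.2% in all) of all such genes. Of the 18 called genes, only LTBP4 had groups that overlapped. Calls and overlap rest on the same libraries, so this is not separate support, and the share over all called genes was not computed. An unadjusted p under 0.05 gave 13 higher and 6 lower matrix genes, against 35.4% of all tested genes in either direction. Limma-voom on the recovered reads gave 16 and 6, against 39% of all genes it tested.

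**Figure D1:**
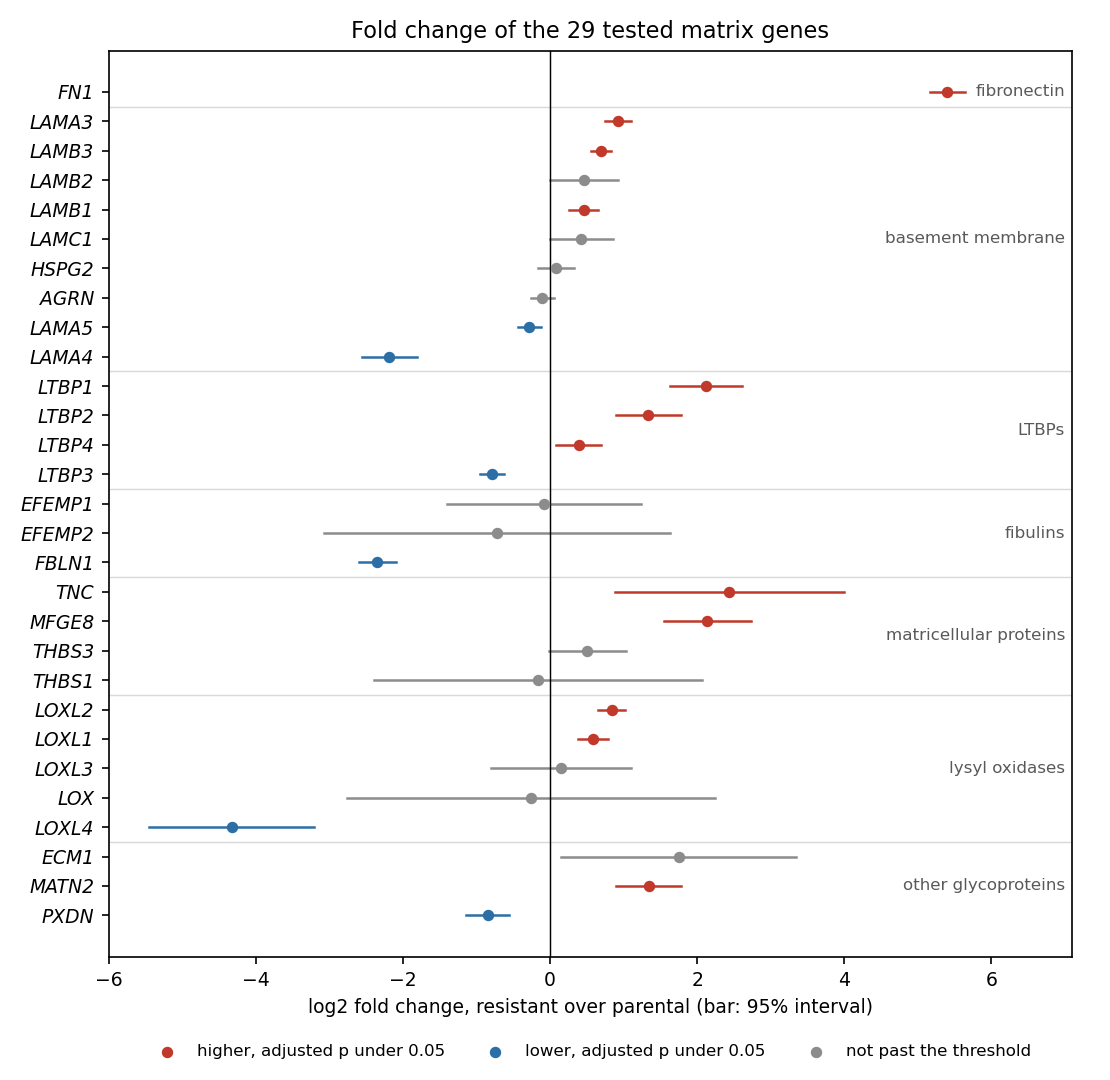
Log2 fold change, resistant over parental, of the 29 tested genes in the authors' deposited table, grouped by role, with bars for the 95% interval from the deposited standard error. FN1 lies furthest to the right at 5.40 and LOXL4 furthest to the left at -4.33, and within the basement membrane, LTBP and lysyl oxidase groups genes lie on both sides of 0.

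**Figure D2:**
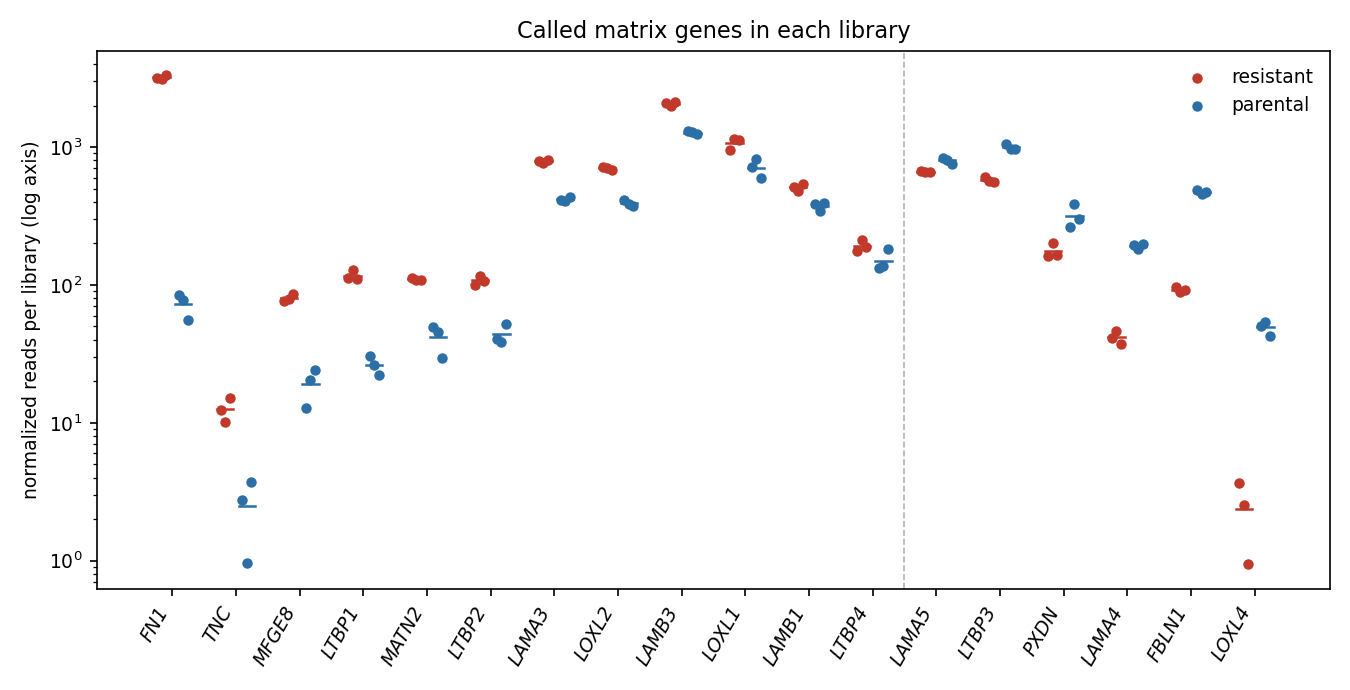
Normalized reads in each library for the 18 called genes on a log axis, with 1 point per library and a short line at the mean of each group of 3. Genes called higher stand left of the dashed line and genes called lower right of it, and LTBP4 is the only gene whose groups overlap.

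The 250 bases upstream of the RefSeq transcription start are shown for the gene with the largest rise and for the 2 with the largest falls, so that their base composition and motifs can be set beside the values. They are RefSeq sequences on GRCh38.p14, written 5′ to 3′ on the gene's strand, and capitals mark matches to the motifs searched on both strands. RefSeq starts differ from the GENCODE gene bounds given with each gene: the FBLN1 window lies inside the GENCODE gene, and the FN1 and LOXL4 windows overlap its first bases, so other starts were not covered.
FN1 promoter, chr2:215436069-215436318, minus strand: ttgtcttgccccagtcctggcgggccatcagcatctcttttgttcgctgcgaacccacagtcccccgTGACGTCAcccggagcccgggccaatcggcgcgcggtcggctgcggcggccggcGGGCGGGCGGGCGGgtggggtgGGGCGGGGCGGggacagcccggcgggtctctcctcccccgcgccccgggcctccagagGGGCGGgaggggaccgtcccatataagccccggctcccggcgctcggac
LOXL4 promoter, chr10:98268195-98268444, minus strand: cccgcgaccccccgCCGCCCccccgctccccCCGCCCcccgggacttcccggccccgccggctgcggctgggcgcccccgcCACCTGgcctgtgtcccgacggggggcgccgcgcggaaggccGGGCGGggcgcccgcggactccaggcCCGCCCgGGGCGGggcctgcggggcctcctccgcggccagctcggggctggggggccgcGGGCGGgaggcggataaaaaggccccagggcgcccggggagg
FBLN1 promoter, chr22:45502633-45502882, plus strand: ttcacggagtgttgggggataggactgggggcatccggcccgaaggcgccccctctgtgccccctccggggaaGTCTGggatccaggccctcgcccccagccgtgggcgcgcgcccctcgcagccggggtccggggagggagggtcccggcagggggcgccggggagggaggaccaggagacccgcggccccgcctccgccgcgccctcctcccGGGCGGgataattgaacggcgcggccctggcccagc
The FN1 window was 76.4% G and C and held a cyclic AMP response element (TGACGTCA) 183 bases upstream of the start, together with 6 GC boxes (GGGCGG), some of them overlapping. The LOXL4 window was 86.4% G and C, with 6 GC boxes and 1 E-box of the letters CACCTG. The FBLN1 window was 77.6% G and C, with 1 GC box and 1 SMAD motif of the letters GTCTG. A promoter was at hand for 26 of the 42 genes.

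The cyclic AMP response element was present in 1.82% of all 22114 promoters of the same length, in 1 of 6 promoters of genes called higher (FN1) and in 0 of 5 of genes called lower. GC boxes were present in 40.9% of all promoters, in 5 of 6 of genes called higher, in 4 of 5 of genes called lower and in 6 of 6 tested genes that were not called. GTCTG was present in 38.0% of all promoters and in 3 of 6, 2 of 5 and 6 of 6 in the same order. CACCTG was present in 17.6% of all promoters and in 1 of 6, 2 of 5 and 0 of 6. The remaining motifs were rare in these windows. TATAAA was present in 11.8% of all promoters and in those of 0 genes called higher or lower. The TEAD motif GGAATG was present in 12.1% of all promoters and likewise in 0 of the called genes. TGANTCA, the AP-1 motif, was present in 6.86% of all promoters and in that of 1 called gene, LAMA3. Median G and C content was 67.8% for genes called higher, 78.4% for genes called lower, 74.6% for tested matrix genes that were not called, 68% for those not tested and 57.2% for all promoters. These matches are descriptions of letters and not evidence of binding.

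FN1 encodes fibronectin, the glycoprotein that links integrins to the fibrous matrix and whose rise is a common marker of mesenchymal change. Normalized reads of FN1 were 3144, 3129 and 3317 in resistant libraries, against 84.8, 77.4 and 55.6 in parental libraries. All resistant libraries lay far above all parental libraries, and neither group varied by more than a small part of the gap. FN1 (chr2:215360440-215436172, minus strand) averaged 3197 ± 105 normalized reads in resistant and 72.6 ± 15.2 in parental libraries (SD, n = 3 each). In the authors' deposited table the log2 fold change was 5.40 ± 0.12 (SE), which is 42.3-fold, with an adjusted p listed as 0 by DESeq2's Wald test. The transcript was already present in parental cells, with 202 reads over the 3 libraries, against 11560 over the resistant libraries. COL1A1 of the fibroblast list moved the same way, at 26.2 ± 3.12 normalized reads in resistant and 1.57 ± 0.563 in parental libraries, while DCN, LUM, PDGFRA and THY1 of that list were at 0.

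FN1 held most of the gain in summed reads of the 42 genes. Reads of the 42 genes summed to 12077, 12008 and 12383 normalized reads in resistant libraries, against 8123, 7974 and 7875 in parental libraries, a ratio of 1.52. Without FN1 the sums were 8933, 8880 and 9066 in resistant libraries, against 8038, 7897 and 7820 in parental libraries, a ratio of 1.13. FN1 made up 26.3% ± 0.431 of these reads in resistant and 0.907% ± 0.178 in parental libraries (SD, n = 3 each). Reads of these libraries come from 3′ ends and are not divided by transcript length, so shares are compared between groups and not between genes.

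Laminin chains moved in both directions, and of the 9 tested basement membrane genes 3 were higher, 2 were lower and 4 were not called. All 9 average at least 50 normalized reads, and 55.6% were called, against 41.5% of all such tested genes. By direction, 18.2% of all such genes were higher and 23.3% lower. LAMA3 encodes the alpha chain of the laminin that anchors epithelia at hemidesmosomes. It had 792, 762 and 811 normalized reads in resistant libraries, against 413, 407 and 434 in parental libraries. The groups were well apart, and in the authors' deposited table LAMA3 (chr18:23689443-23956222) had a log2 fold change of 0.92 ± 0.09 with an adjusted p of 7.09e-23, which is 1.89-fold. LAMB3, the beta chain of the same laminin, had 2077, 1976 and 2117 normalized reads in resistant libraries, against 1304, 1283 and 1233 in parental libraries. Every resistant library was above every parental library. LAMB3 (chr1:209614870-209652466) had a log2 fold change of 0.69 ± 0.07 and an adjusted p of 2.65e-22 in the authors' deposited table.

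LAMA4, the alpha chain of laminins in vessel walls, muscle and nerve, went the other way. It had 41.6, 46.3 and 37.6 normalized reads in resistant libraries, against 195, 181 and 197 in parental libraries. The groups did not overlap. LAMA4 (chr6:112108760-112254939) had a log2 fold change of -2.18 ± 0.19 and an adjusted p of 5.06e-29 in the authors' deposited table, a level 4.54-fold higher in parental cells.

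LAMA5, the broadly expressed alpha chain of mature epithelial basement membranes, was lower by a small amount. It had 673, 654 and 661 normalized reads in resistant libraries, against 836, 810 and 759 in parental libraries. The groups did not overlap, and the log2 fold change in the authors' deposited table was -0.28 ± 0.08 with an adjusted p of 0.00395. The gene ends close to ADRM1 on the opposite strand, which had a mean normalized count of 1853 and a log2 fold change of -0.06, not called at an adjusted p of 0.611, in the authors' deposited table. Strand use in counting is not given in the sources used here, and without it reads of such neighbours cannot be told apart.

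Set against each other, LAMA3 held 52.8% ± 0.828 of the reads of the 3 alpha chains in resistant and 29.7% ± 1.39 in parental libraries. LAMA5 held 44.4% ± 0.524 in resistant and 56.8% ± 1.91 in parental libraries, and LAMA4 held 2.80% ± 0.339 in resistant and 13.5% ± 0.607 in parental libraries (SD, n = 3 each). In an exact two-sided permutation test each of these shares gave p = 0.1, the smallest that 3 libraries against 3 allow, so the test could not pass 0.05.

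**Figure D3:**
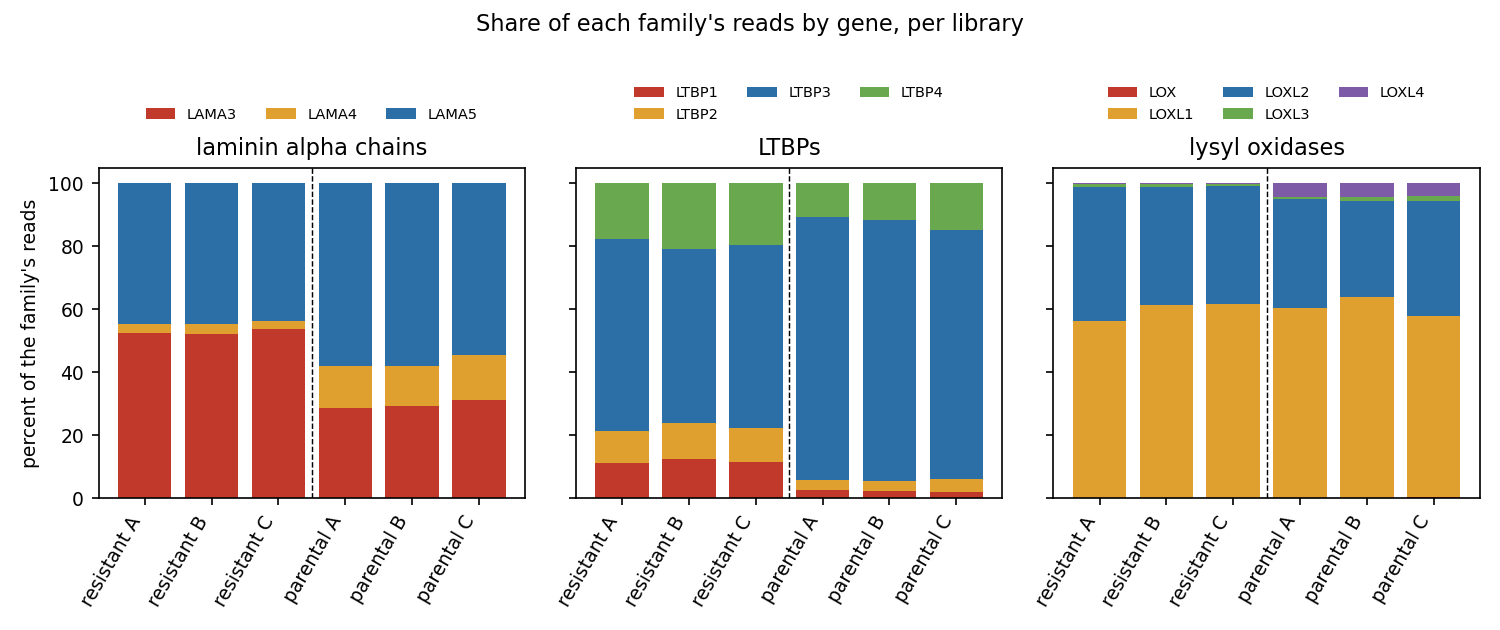
Share of reads, in percent, taken by each gene of the laminin alpha chains, the LTBPs and the lysyl oxidases in each library, with resistant libraries left of the dashed line and parental libraries right of it. LAMA3, LTBP1, LTBP2 and LTBP4 take larger shares in the 3 resistant libraries, and LAMA4, LAMA5, LTBP3 and LOXL4 take smaller ones.

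The remaining basement membrane genes changed little or were not called. LAMB1, the beta chain of widely expressed laminins, had 517, 479 and 538 normalized reads in resistant libraries, against 384, 345 and 393 in parental libraries. These groups did not overlap, and LAMB1 had a log2 fold change of 0.46 ± 0.10 with an adjusted p of 7.2e-05 in the authors' deposited table. LAMB2, the beta chain of synaptic and kidney laminins, had 65.6, 81.6 and 72.4 normalized reads in resistant libraries, against 60.9, 54.2 and 40.8 in parental libraries. Its groups did not overlap, but the deposited test did not call it: the log2 fold change in the authors' deposited table was 0.46 ± 0.24 with an adjusted p of 0.146. LAMC1, the most common gamma chain, had 91.8, 133 and 94.9 normalized reads in resistant libraries, against 59.9, 95.8 and 83.5 in parental libraries. Its groups overlapped, with a log2 fold change of 0.43 ± 0.22 with an adjusted p of 0.144 in the authors' deposited table.

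HSPG2 encodes perlecan and AGRN encodes agrin, both heparan sulfate proteoglycans of basement membranes. HSPG2 had 452, 364 and 417 normalized reads in resistant libraries, against 423, 325 and 425 in parental libraries, and AGRN had 1007, 914 and 989 in resistant libraries, against 1052, 995 and 1094 in parental libraries. The groups overlapped for both genes. The 95% interval of the log2 fold change from the authors' deposited table ran from -0.16 to 0.32 for HSPG2 and from -0.26 to 0.05 for AGRN, so changes larger than these bounds lay outside it. NID1 and NID2, the nidogens that join laminin to collagen networks, had no reads.

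All 4 LTBPs were called, 3 higher and 1 lower. Each averages at least 50 normalized reads, and 41.5% of all such tested genes were called. LTBP1, which holds latent TGF-beta in fibronectin and fibrillin fibres, had 112, 128 and 110 normalized reads in resistant libraries, against 30.4, 26.1 and 22.3 in parental libraries. The groups were far apart, and LTBP1 (chr2:32946972-33399509) had a log2 fold change of 2.12 ± 0.25 with an adjusted p of 6.71e-16 in the authors' deposited table, which is 4.34-fold. LTBP2, which associates with fibrillin but does not bind latent TGF-beta, had 101, 117 and 106 normalized reads in resistant libraries, against 40.6, 38.7 and 51.9 in parental libraries. Its groups did not overlap either, and its log2 fold change was 1.34 ± 0.22 with an adjusted p of 3.64e-08 in the authors' deposited table.

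LTBP3, a close relative that also binds latent TGF-beta, was lower. It had 606, 565 and 562 normalized reads in resistant libraries, against 1049, 968 and 972 in parental libraries. The groups were well apart, and LTBP3 (chr11:65538805-65558930) had a log2 fold change of -0.79 ± 0.08 with an adjusted p of 1.37e-19 in the authors' deposited table. LTBP4, which supports elastic fibre assembly, had 177, 213 and 189 normalized reads in resistant libraries, against 132, 136 and 182 in parental libraries. Parental C lay above resistant A, so the groups overlapped, and the log2 fold change of 0.39 ± 0.16 in the authors' deposited table passed narrowly, with an adjusted p of 0.0449. With every gene that has a p-value in the adjustment it was 0.0528. In limma-voom fits to the recovered reads with 1 library left out it ran from 0.00136 to 0.0598, the highest without parental A.

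Within the family, LTBP3 held 58.1% of LTBP reads in resistant and 81.9% in parental libraries. LTBP1 held 11.7% in resistant and 2.16% in parental libraries, LTBP2 10.8% in resistant and 3.59% in parental libraries, and LTBP4 19.4% in resistant and 12.3% in parental libraries. Each of these shares gave p = 0.1 in an exact two-sided permutation test over 3 and 3 libraries, the smallest p that test allows. TGFB1, the ligand that LTBPs hold, was called higher with a log2 fold change of 1.15 ± 0.17 in the authors' deposited table. Of the 3 tested TGF-beta ligands, 1 was thus called (33.3%, near the 28.2% of all tested genes). By the authors' deposited table, TGFB2 averaged only 2.07 normalized reads and TGFB3 only 2.10, too few for a firm statement on either. The fibrillins, to which LTBPs are related, were close to undetected, with 2 reads of FBN1 in resistant and 0 in parental libraries and no reads of FBN2.

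Of the fibulins, calcium-binding glycoproteins of basement membranes and elastic fibres, 1 of 3 tested genes was called (33.3%, near the 28.2% of all tested genes), and it was lower. FBLN1, which binds fibronectin and laminin, had 96.2, 89.2 and 92.1 normalized reads in resistant libraries, against 489, 453 and 473 in parental libraries. Libraries within a group were close to each other and the groups were far apart. FBLN1 (chr22:45502238-45601135, plus strand) had a log2 fold change of -2.35 ± 0.13 and an adjusted p of 5.64e-71 in the authors' deposited table, a level 5.09-fold higher in parental cells.

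EFEMP1 and EFEMP2, fibulins of elastic fibres and basement membranes, had too few reads for a firm statement. In the authors' deposited table EFEMP1 had a mean normalized count of 7.09 and a log2 fold change of -0.08 ± 0.67, and EFEMP2 a mean of 2.21 and a log2 fold change of -0.72 ± 1.20. FBLN5 had 1 read in resistant and 1 in parental libraries, and FBLN2 had none.

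Matricellular proteins, which act on cells more than they build fibres, gave 2 called genes of 4 tested, both higher (50%, against 28.2% of all tested genes). MFGE8, a secreted integrin ligand that bridges cells to phosphatidylserine on dying cells, had 76.5, 79.1 and 86.5 normalized reads in resistant libraries, against 12.9, 20.3 and 24.1 in parental libraries. The groups were far apart, and MFGE8 (chr15:88898683-88913411) had a log2 fold change of 2.14 ± 0.30 with an adjusted p of 2.43e-11 in the authors' deposited table, which is 4.40-fold. TNC, which encodes tenascin-C of wounds and tumour stroma, had 17, 12 and 16 reads in resistant libraries, against 3, 1 and 2 in parental libraries. The groups did not overlap, and the log2 fold change of 2.44 ± 0.80 had an adjusted p of 0.0101 in the authors' deposited table, with an interval that reflects the few reads.

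THBS3, a thrombospondin of bone and cartilage, had 53.2, 53.0 and 55.5 normalized reads in resistant libraries, against 36.9, 32.9 and 46.4 in parental libraries. These groups did not overlap, but the log2 fold change of 0.51 ± 0.27 was not called, with an adjusted p of 0.158 in the authors' deposited table. THBS1, a known activator of latent TGF-beta, had a mean normalized count of 2.59 and a log2 fold change with a 95% interval from -2.39 to 2.06 in the authors' deposited table, so changes within those bounds were not resolved. SPARC, a collagen-binding protein, had 4 reads in resistant and 0 in parental libraries, while THBS2 and POSTN had none.

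The proteoglycans of the interstitial matrix, VCAN, BGN, DCN and LUM, had 0 reads in all 6 libraries, which allows up to 3 reads over the series for each gene. A count of 0 is not read as absence, since a low count can also occur for an expressed gene. In the authors' deposited table the near-universal transcripts RPL10 and NDUFA4 averaged 0.571 and 0.157 normalized reads. Why their counts were low was not tested, and it need not apply to these 4 proteoglycans.

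Among the lysyl oxidases, LOXL1 and LOXL2, which had many reads, were higher, LOXL4 was lower, and LOX and LOXL3 were not called. LOXL2, which cross-links basement membrane collagen, had 717, 706 and 686 normalized reads in resistant libraries, against 412, 388 and 377 in parental libraries. The groups were well apart, and the log2 fold change was 0.84 ± 0.09 with an adjusted p of 6.7e-18 in the authors' deposited table. LOXL1, which acts on elastic fibres, had 950, 1150 and 1116 normalized reads in resistant libraries, against 715, 818 and 597 in parental libraries. Its groups did not overlap, and its log2 fold change was 0.58 ± 0.10 with an adjusted p of 3.39e-07 in the authors' deposited table. The antisense gene LOXL1-AS1 had a mean normalized count of 58.6 and a log2 fold change of 0.83 (adjusted p 0.00374) in the authors' deposited table, and without strand its reads cannot be told apart from those of LOXL1 where they overlap. Over the last 1000 bases of LOXL1, the 3′ end, neither LOXL1-AS1 nor any further GENCODE gene was found.

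LOXL4 had the largest fall of the 42 genes. It had 5, 3 and 1 reads in resistant libraries, against 55, 56 and 23 in parental libraries. As normalized reads these were 3.64, 2.52 and 0.940 in resistant libraries, against 50.7, 54.2 and 42.7 in parental libraries. The groups were far apart in every library. LOXL4 (chr10:98247690-98268250, minus strand) had a log2 fold change of -4.33 ± 0.57 and an adjusted p of 6.38e-13 in the authors' deposited table, a level 20.1-fold higher in parental cells. It held 0.134% ± 0.0821 of lysyl oxidase reads in resistant and 4.21% ± 0.0835 in parental libraries (SD, n = 3 each).

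LOXL1 held 59.6% of those reads in resistant and 60.6% in parental libraries (exact two-sided permutation p = 0.7), and LOXL2 held 39.3% in resistant and 33.8% in parental libraries (exact permutation p = 0.1). The permutation test cannot give a p below 0.1 with 3 libraries against 3. LOX, the founding member, had 1, 3 and 2 reads in resistant libraries, against 1, 2 and 2 in parental libraries. LOXL3, with a mean normalized count of 14.7 in the authors' deposited table, had a log2 fold change of 0.14 ± 0.49 and was not called. Its 3′ end lies by HTRA2 on the opposite strand, which had a mean normalized count of 235 and a log2 fold change of -0.37 in the authors' deposited table. The 95% interval of the log2 fold change of LOX in the authors' deposited table ran from -2.76 to 2.24, so changes within those bounds were not resolved.

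MATN2, a matrilin that links matrix filaments, had 112, 109 and 108 normalized reads in resistant libraries, against 49.8, 45.5 and 29.7 in parental libraries. The groups did not overlap, and the log2 fold change was 1.34 ± 0.23 with an adjusted p of 3.48e-08 in the authors' deposited table. The 3′ end of MATN2 lies by RPL30 on the opposite strand, which had a mean normalized count of 7261 and a log2 fold change of -0.14 in the authors' deposited table.

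PXDN, peroxidasin, forms sulfilimine bonds in basement membrane collagen and was lower. It had 163, 202 and 165 normalized reads in resistant libraries, against 264, 385 and 300 in parental libraries. The groups did not overlap, and the log2 fold change was -0.84 ± 0.15 with an adjusted p of 2.05e-07 in the authors' deposited table. ECM1, which binds perlecan and other matrix proteins, had 9, 10 and 13 reads in resistant libraries, against 3, 2 and 2 in parental libraries. Its groups did not overlap, but the log2 fold change of 1.75 ± 0.81 in the authors' deposited table was not called, with an adjusted p of 0.0979.

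Several of the called genes lie among neighbours that moved the same way. LTBP1 lies within 5 Mb of 22 tested genes averaging at least 50 normalized reads, none of which had a fold change below 0, with a median log2 fold change of 0.66 in the authors' deposited table. PXDN had 7 such neighbours, all 7 below 0, with a median of -1.09 in the authors' deposited table, so PXDN itself lay nearer to 0 than that median. FBLN1 had 44 of 56 neighbours below 0 and LTBP3 had 122 of 151, with medians of -0.37 and -0.38 in the authors' deposited table. These medians lie nearer to 0 than the folds of FBLN1 and LTBP3 themselves. LAMB3 had 7 of 19 neighbours below 0 and a neighbour median of 0.42 in the authors' deposited table, which leaves 0.27 of its own log2 fold change of 0.69. FN1 had a neighbour median of 0.17, MFGE8 of -0.07, LOXL4 of 0.04 and LAMA4 of 0.10 in the authors' deposited table, so their own folds stood well away from their surroundings. For 17 of the 18 called genes the fold kept its sign after the neighbours' median was taken off, the exception being PXDN. Calls favour folds far from 0, so a kept sign was likely from the outset. The share over all called genes was not computed. Copy number was not analysed here, and its part in these folds was not tested.

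**Figure D4:**
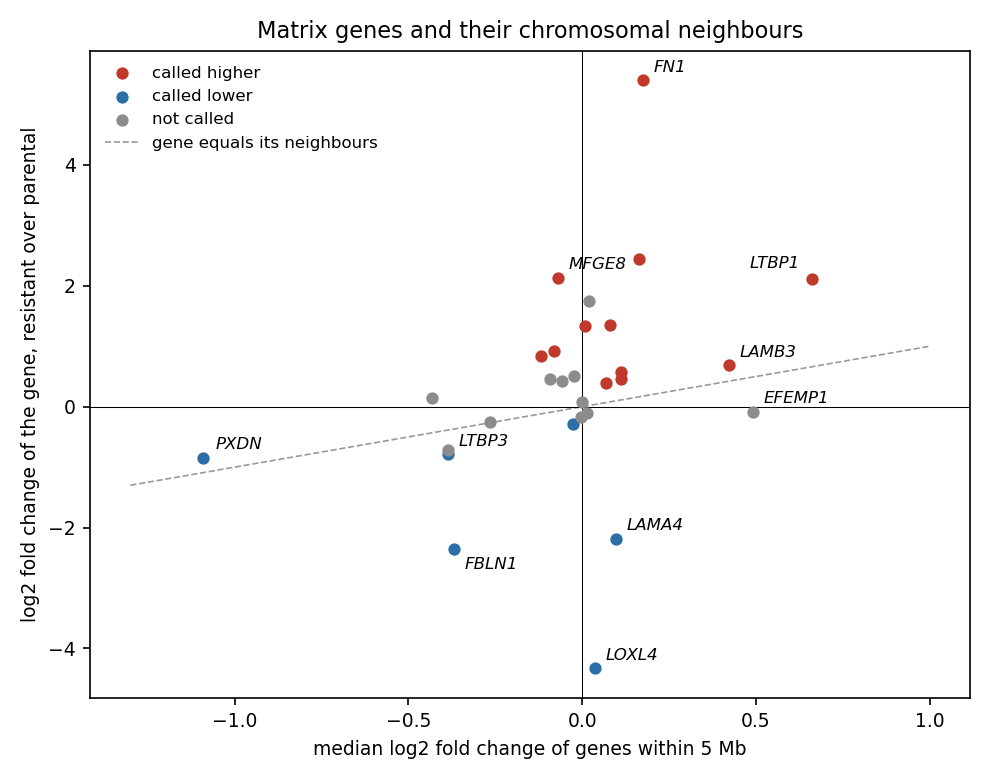
Log2 fold change of each tested matrix gene (vertical axis) against the median log2 fold change of the tested genes within 5 Mb that average at least 50 normalized reads (horizontal axis), with 1 point per gene and a dashed line where both are equal. FN1, LOXL4, LAMA4 and MFGE8 lie far from the line at a neighbour median near 0, and PXDN lies close to the line at -1.09.

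Genes that work with these 42 gave a mixed picture. Of 59 other matrix glycoproteins and elastic fibre genes, 22 were tested, and the authors' deposited table put 8 higher and 0 lower, against 13.3% and 14.8% of all tested genes. Among the largest rises with a mean of 10 or more were SPOCK2, a secreted proteoglycan, at 2.10 ± 0.34, and THBS4, a thrombospondin, at 1.75 ± 0.48, as log2 fold changes in the authors' deposited table. For 22 tested matrix receptors the authors' deposited table gave 7 rises and 5 falls, 54.5% called against 28.2% of all tested genes. Of all tested genes averaging at least 50 normalized reads, 41.5% were called. Among the receptors that were higher were ITGAV, the integrin chain of fibronectin and vitronectin receptors, at 1.65 ± 0.34, ANTXR1 at 1.19 ± 0.19 and ITGB6, the partner of ITGAV in a receptor that activates latent TGF-beta, at 1.14 ± 0.16, in the authors' deposited table. The laminin-binding integrin chains ITGA6 and ITGA3 were lower, at -1.23 ± 0.07 and -0.88 ± 0.08, as was the hyaluronan receptor CD44, at -1.06 ± 0.10, in the authors' deposited table.

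For 25 tested genes of matrix assembly, cross-linking and processing, the authors' deposited table gave 6 rises and 4 falls, 40% called against 28.2% of all tested genes. Many of them have high counts, and of all tested genes averaging at least 50 normalized reads 41.5% were called, a share close to theirs. BMP1, the protease that activates LOX and trims procollagens, was higher at 1.06 ± 0.15, and PCOLCE, which speeds that trimming, at 1.66 ± 0.45 in the authors' deposited table. ADAMTSL4, a fibrillin-binding protein, was higher at 1.05 ± 0.42 in the authors' deposited table. SULF2, a heparan sulfate editing enzyme, was lower at -2.27 ± 0.08, FAM20C, a secretory kinase, at -1.87 ± 0.25, and TGM2, which cross-links fibronectin, at -0.54 ± 0.06 in the authors' deposited table.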

How the data were processed

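The data are the authors' deposited table of their comparison of 3 resistant with 3 parental libraries, made per the labels' protocols by a bulk form of MARS-seq that reads 3′ ends. The submitters' processing notes name the tools cutadapt, STAR, HTSeq and DESeq2 and the build GRCh38 (hg38), while versions, settings and strand use are not given in the sources used here. Per the file headers, the authors' deposited table has normalized counts averaged over libraries (a signal), a log2 fold change with its standard error, the Wald statistic (a score), and a p-value with its Benjamini-Hochberg adjusted p-value for 13494 genes. The planned count test was replaced by the authors' Wald test, two-sided, with calls at an adjusted p under 0.05, because no counts per library were given.

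Reads per library were recovered here. The deposited means carry 15 digits and are sums of whole reads times 1 weight per library, the weights being the means of genes with 1 read in 1 library. The whole numbers were solved by lattice reduction, and a solution was accepted when it alone also gave the deposited fold within 5e-06, or when it was the only solution at a mean under 100. This gave 13151 of 13494 tested genes (97.5%), of which 11937 met the fold condition. Of the 32 matrix genes with reads, 29 met it and 3 rest on the sum alone. The 343 genes not recovered all have a mean of at least 237.5. Normalized reads are these reads divided by the authors' size factors. The solver was tested on simulated data for genes with lower means than FN1 and LAMB3, so that test does not cover the reads of FN1 and LAMB3. Libraries within a group differed by more than counting noise (chi-square over degrees of freedom 1.44 to 2.03 over 7052 genes), so none was a copy of another. Counting error only is covered by limits given for a count of 0.

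Alternatives included limma-voom (limma 3.58.1, R 4.3.3) on the recovered reads with every library left out in turn. Python 3.11.15 with numpy 2.4.6 and scipy 1.17.1 was used elsewhere. Positions are from GENCODE 29 (GRCh38) and promoters from RefSeq (GRCh38.p14). Sequences on chromosome 8 were not printed, and promoters were printed for the 2 largest rises and 2 largest falls with a mean of 10 or more, except MFGE8. All 42 genes are named, and from related lists up to 3 rises and 3 falls with a mean of 10 or more. A gene that this rule takes is not reported here. The genes and lists were chosen with earlier results of these data known, and RPL10 and NDUFA4 after their values were seen. Protein sequences were not analysed here.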

Additional observations from a re-analysis of the deposited data

How the results depend on the processing

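Of the 12 higher and 6 lower calls, 6 and 3 were also at least 2-fold (FN1, LTBP1, LTBP2, MATN2, MFGE8 and TNC higher, and FBLN1, LAMA4 and LOXL4 lower). At an adjusted p under 0.01 the counts were 10 and 6, with LTBP4 and TNC lost, and with every gene that has a p-value in the adjustment they were 11 and 6, with LTBP4 lost. Centring on the median of well-expressed genes (a log2 shift of -0.03) left 12 and 6. Limma-voom on the recovered reads, chosen after seeing the data, called 16 and 6 under either scaling, adding ECM1, LAMB2, LAMC1 and THBS3. With the authors' size factors it called 39% of all genes it tested, and that share was not computed for scaling by total reads. Leaving out each library in turn gave 12 to 16 higher and 6 lower calls and a median log2 fold change of 0.34 to 0.48. Shares over all genes were not computed for these left-out fits. They were also not computed for the 2-fold, 0.01, widened-adjustment and centred settings. Those counts alone do not show whether the matrix genes stand out. In the fits with 1 library left out, 5 uncalled genes changed sign. EFEMP1 ran from -0.59 to 0.080 (above 0 without resistant A), HSPG2 from -0.046 to 0.18 (below 0 without parental B), LOXL3 from -0.24 to 0.59 (below 0 without parental A) and THBS1 from -1.23 to 0.29 (above 0 without resistant C). LOX ran from -0.70 to 0.22 and was above 0 without resistant A (0.22) and without parental C (0.07). The cause was not tested, and these folds lie within 1 standard error of 0 in the deposited fit. No paired analysis was possible because the recovered libraries carry no replicate numbers. The planned comparison of TMM with DESeq2 size factors was not run, since no deposited counts were at hand, and total reads against the authors' size factors stand in its place. These totals cover recovered tested genes only and leave out the 343 not recovered, which have high means. Few reads of LOX, THBS1 and EFEMP2 left wide intervals for their folds.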
